A study of Mus musculus with 8 samples.

Results

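The 7 MLL and SET1 genes of mouse, Kmt2a, Kmt2b, Kmt2c, Kmt2d, Kmt2e, Setd1a and Setd1b, were followed as sites of transcription initiation, among 55450 annotated genes of which 21951 are protein-coding. Each same-strand tag cluster whose dominant TSS lay between 500 bp upstream of the gene start and the gene end was taken as a member. This gave 36 clusters in each line, of 32857 in E14, 33005 in A1 and 32870 in C7. Within these genes position alone chose the clusters, and no measured level was used. The genes themselves were chosen with earlier results of these data known.

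CAGE-seq captures the cap of RNA and reads the 5′ ends of the cDNA, so that each read is taken to mark a transcription start site (TSS). A tag cluster is a run of nearby start sites on 1 strand, and its dominant TSS is the base with the most signal. Nuclear RNA came from 3 libraries of E14, a line of wild-type mouse embryonic stem cells (mESCs), from 2 libraries of clone A1 and from 3 libraries of clone C7. Both clones are E14 cells with a double PWWP2A/B knockout (Pwwp2a/b DKO), and each DKO line is a single clone. PWWP2A and PWWP2B are readers of H3K36me3, the mark of transcribed gene bodies, and are found with the histone deacetylases HDAC1/2, and the comparison asks where transcription starts when they are absent. The libraries of a line were merged before clusters were called, so each line was 1 set without replicates, no test between lines was possible, and the cluster positions hold no level or depth.

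The MLL and SET1 proteins place methyl groups on lysine 4 of histone H3, the mark that stands at active promoters in its trimethylated form and at enhancers in its monomethylated form. KMT2A and KMT2B act at promoters with menin, KMT2C and KMT2D are the main enhancer enzymes, and SETD1A and SETD1B give most of the promoter mark. KMT2E carries the same SET domain, but whether it methylates histones by itself is disputed. Most of these proteins are very large, and their genes hold long coding exons.

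In wild-type and DKO mESCs these genes carried the same clusters, and most of them lay inside coding exons and not at gene starts. In each line 21 of the 36 clusters were exonic (58.3%, 95% Wilson interval 42.2% to 72.9%) and 15 lay within 500 bp of an annotated transcript start (41.7%, 27.1% to 57.8%). None was intronic. Which kind was the more frequent depended on the settings, since a promoter window of 1000 bp gave 19 promoter and 17 exonic clusters in each line, and a minimum interquantile width of 3 bp left 12 promoter clusters in each line beside 6 exonic ones in E14 and A1 and 5 in C7. Over all E14 clusters, 60.5% lay at annotated promoters, 13.0% in exons, 9.27% in introns and 17.3% between genes. These intervals cover no more than counting error.

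The 15 promoter clusters were of 2 kinds. At the 5′ ends of 6 genes lay 9 clusters, outside coding sequence and within 1000 bp of the outermost gene start. The other 6 lay deep inside Kmt2a, Kmt2b and Kmt2c, in coding sequence, within 500 bp of the start of a shorter annotated transcript. Counting both, coding sequence held the dominant TSS of 26 of the 36 clusters, and 1 more lay in a 3′ UTR.

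**Figure D1:**
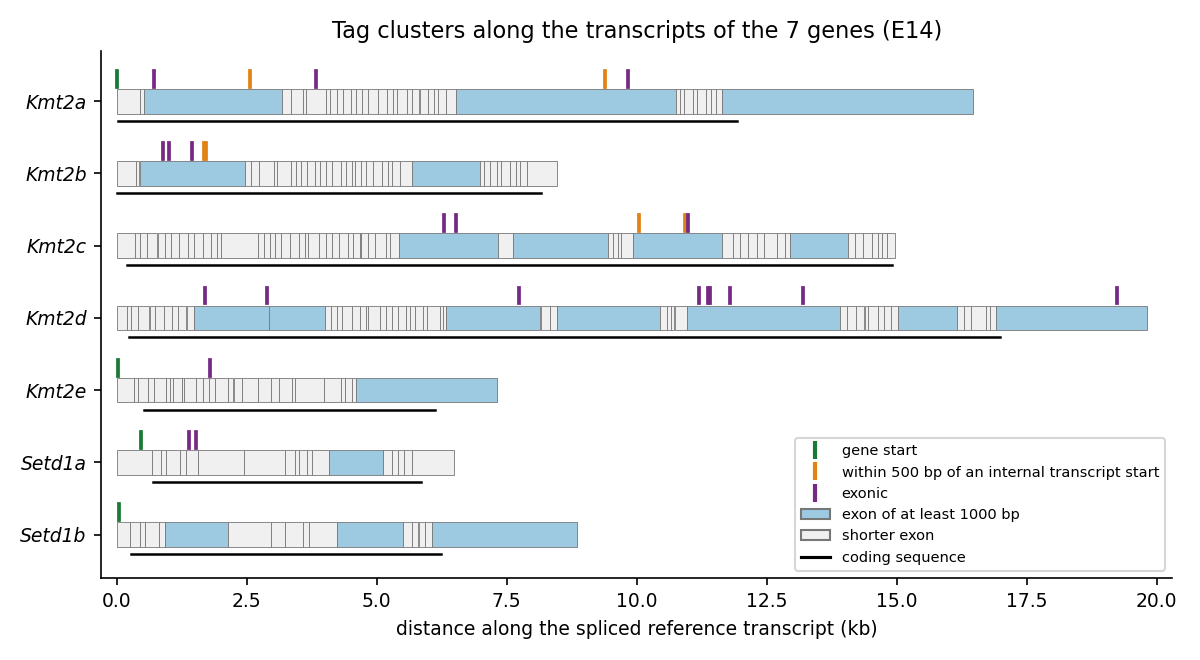
Tag clusters of E14 along the spliced reference transcript of each gene (x axis, kb from the transcript start), with coloured ticks for the dominant TSSs, blue boxes for exons of at least 1000 bp, pale boxes for shorter exons and a black line for the coding sequence. The 31 clusters that lie in these transcripts are drawn, 5 gene-start clusters lie outside them, and most ticks in Kmt2a, Kmt2b, Kmt2c and Kmt2d stand over blue boxes.

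The sequences around the dominant TSSs in E14 are shown because they separate the clusters inside exons from those at gene starts. Each run holds 15 bases before the TSS and 15 from it onwards, on the strand of the gene, in mm10 coordinates. For the exonic clusters the 3 bases just before the TSS are in capitals. Exonic sequences were read from GENCODE transcripts. Outside Kmt2d 1 exonic cluster per gene is shown, and Kmt2b cluster 2, left out here, follows AGG.
Kmt2d cluster 1 (exon 11, minus strand of chr15:98863984-98864013): ctctccactggaGGGgtgccctccatctcc
Kmt2d cluster 2 (exon 11, chr15:98862794-98862823): tgtccctgtcggGGGagccagtcttgtcac
Kmt2d cluster 3 (exon 32, chr15:98852295-98852324): cacagggggtagGGGaaccttccctaaaac
Kmt2d cluster 4 (exon 40, chr15:98846288-98846317): gtctgcctccagGGGgtatggtactacctg
Kmt2d cluster 5 (exon 40, chr15:98846127-98846156): ggacctgactcgAGGcttttacaggaaagg
Kmt2d cluster 6 (exon 40, chr15:98846078-98846107): aacgaatgcagcTGGctcagaaactacagc
Kmt2d cluster 7 (exon 40, chr15:98845707-98845736): cacagccttatgGGAcaccggctactcaca
Kmt2d cluster 8 (exon 40, chr15:98844298-98844327): acctcaacctggGGGtttttctgtatctca
Kmt2a cluster 2 (exon 3, minus strand of chr9:44849851-44849880): ctaccttccctgGGGtaaaaatcaaaatca
Kmt2b cluster 4 (exon 3, minus strand of chr7:30586013-30586042): gctctaggaagaGGGgcaggcctcccctga
Kmt2c cluster 3 (exon 36, minus strand of chr5:25314771-25314800): ctcatgcttcaaGGGcttttcctcagcctg
Kmt2e cluster 3 (exon 13, plus strand of chr5:23482411-23482440): gaaattgaagagGGGaccatacatctctac
Setd1a cluster 5 (exon 6, plus strand of chr7:127784149-127784178): ctacacatctcgGGGtagcaccccctactc

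For comparison, gene-start clusters are shown from the RefSeq promoter windows on GRCm38.p6, with the base before the TSS and the TSS itself in capitals. Gene starts read from transcripts are not shown, among them Kmt2e cluster 2, with CC at these bases.
Kmt2a cluster 1 (minus strand of chr9:44881275-44881304): ccctctcgctgcttCActtacggggcgaac
Kmt2c cluster 1 (minus strand of chr5:25498769-25498798): cggcccctgcgcgcCGagtgcgcgcgcccg
Setd1a cluster 3 (plus strand of chr7:127777344-127777373): gcaggtggcggtggTGtttggtgcgcgcgc

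Guanines stood before the exonic TSSs of these genes. The letters GG filled the 2 bases before the dominant TSS, on the strand of the gene, at 20 of 21 exonic clusters in E14 (95.2%, 77.3% to 99.2%), 17 of 21 in A1 (81.0%) and 20 of 21 in C7. GGG filled the 3 bases at 17, 15 and 17 of them. Kmt2d cluster 7 was the exception to GG in E14. Among the 26 clusters in coding sequence, which add those near internal transcript starts and leave out Kmt2d cluster 9 of the 3′ UTR, GG stood at 23, 19 and 22. Over all exonic clusters of E14 with a sequence, 64.0% followed GG and 39.9% followed GGG, and over all promoter clusters with a sequence, 85.5% of those present, 11.1% and 6.55% did. Of the 68223 coding positions of the 7 genes, 6.78% follow GG and 1.64% follow GGG, which ran from 0.884% in Kmt2c to 2.68% in Kmt2b.

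The usual initiator step, a pyrimidine before a purine, was the reverse. It was found at 0 of 21 exonic dominant TSSs in E14 (upper Wilson bound 15.5%), at 1 in A1 and at 0 in C7, beside 10.5% of all exonic and 74.4% of all promoter clusters of E14. Among the gene-start clusters of the 7 genes, 6 of 9 had a sequence, and 5 of these 6 carried the step and none followed GG, in each line. Kmt2e cluster 2 was the one without it. The part of sequence or library preparation in the guanine pattern was not tested.

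**Figure D2:**
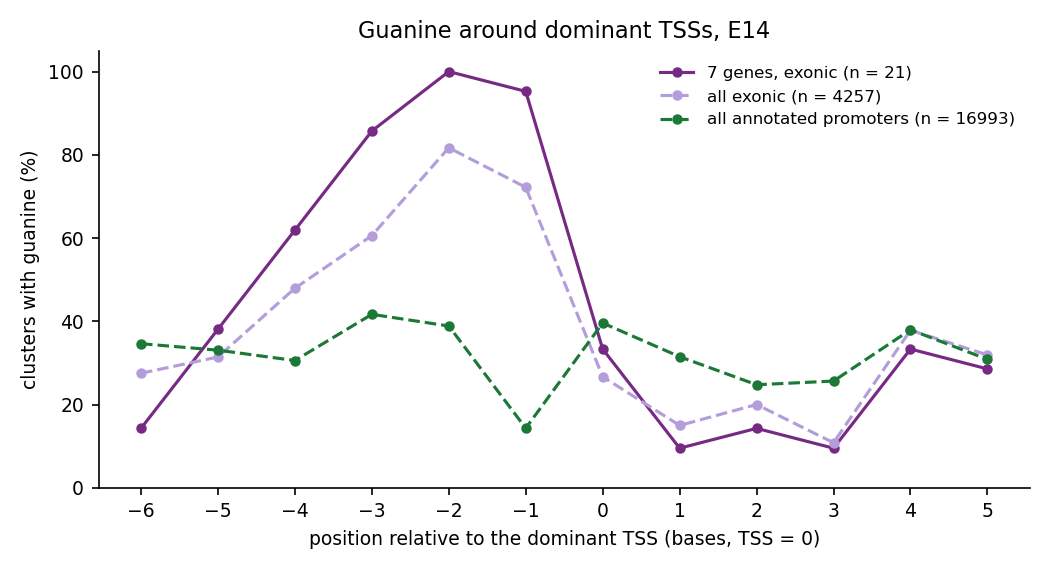
Share of E14 clusters with guanine (y axis, %) at each position around the dominant TSS (x axis, bases, TSS at 0), for the exonic clusters of the 7 genes (n = 21), all exonic clusters (n = 4257) and all promoter clusters (n = 16993) with a sequence. The exonic clusters of the 7 genes reach 100% at the second base before the TSS and 95.2% at the base before it, above all exonic clusters at both, while the promoters are lowest at the base before the TSS.

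Between wild-type and DKO lines no member cluster was gained or lost. All 36 clusters of E14 overlapped a cluster in A1 and in C7 (100%, 90.4% to 100%), and all 36 had the same first and last base in the 3 lines. Among all E14 clusters, 1.23% had no overlap in at least 1 clone and 2.71% lacked the same bounds in all 3 lines. For exonic clusters these shares were 1.13% and 2.07%, and for promoter clusters 0.77% and 2.3%, so 36 of 36 was close to that background. Gains were likewise rare in the whole set, 1.74% of exonic clusters in A1 and 1.9% in C7 having no overlap in E14. The study's methods describe aggregating clusters of the same strand into consensus peaks, and its part in the shared bounds was not tested.

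**Figure D3:**
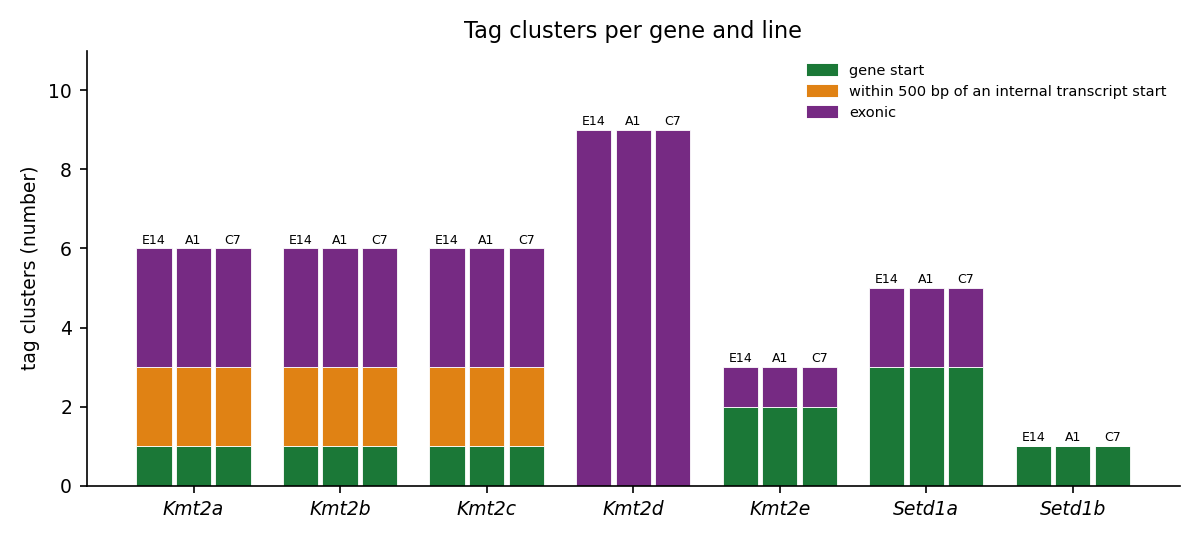
Number of tag clusters (y axis) in each gene (x axis) and line (bars E14, A1 and C7), stacked by site. The 3 bars of a gene have the same height and make-up, from 1 cluster in Setd1b to 9 in Kmt2d, and Kmt2d has no gene-start cluster.

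Kmt2d, on the minus strand of chromosome 15 from 98831669 to 98871204, had the most clusters of the 7, with 9 in each line, all of them exonic. They lay in 4 of its 55 exons. Exon 11, of 1434 bp, held 2 clusters, exon 32, of 1815 bp, held 1, and exon 40, of 2952 bp, held 5. The last one, cluster 9, lay in the 3′ UTR part of exon 55, with its dominant TSS at 98832257 in all 3 lines. The 5 clusters of exon 40 began 245 to 2235 bp into the exon, at 65.5% to 77.3% of the coding sequence. Clusters 4, 5 and 6 stood close together, 245, 406 and 455 bp into the exon. Most of the 9 had the same dominant TSS in each line. Cluster 4 had its dominant TSS at 98846302 in E14, A1 and C7, and the first ATG stood 2 bp downstream, in frame. Cluster 6 had it at 98846092 in E14 and C7 and at 98846091 in A1. Of the 9 clusters, 8 were 2 bp wide, and cluster 7 spanned 17 bp. The lead of Kmt2d rested on these narrow clusters. With a minimum interquantile width of 3 bp it kept 1 exonic cluster in E14, beside 2 in Kmt2b and 2 in Kmt2c.

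At its annotated start Kmt2d had no cluster in any line. The nearest same-strand clusters lay outside the member rule, at 98871988 (784 bp upstream) and 98872211 (1007 bp upstream), with the same dominant TSS in all 3 lines. The second was broad, like a gene start, with an interquantile width of 50 bp in E14, 49 bp in A1 and 53 bp in C7. Interquantile width is the span that holds the signal between quantiles 0.1 and 0.9. It was counted as a promoter because the annotated transcript of Gm49437 starts 402 bp further upstream. Whether it serves Kmt2d was not tested. Among coding genes with an exonic cluster, 118 of 1602 (7.37%) had no promoter cluster in E14, and among those with at least 3 exonic clusters 9 of 442 did.

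Kmt2a, Kmt2b and Kmt2c each had 6 clusters, 1 at the gene start and 5 in coding sequence. In Kmt2a, on the minus strand of chromosome 9 from 44803355 to 44881296, 2 of them lay in exon 3 (2651 bp), 2 in exon 27 (4237 bp) and 1 in exon 7 (384 bp). The pair in exon 27 stood 2874 and 3305 bp from its first base. In Kmt2b, on the minus strand of chromosome 7 from 30568858 to 30588726, all 5 lay in exon 3 (2036 bp of 37 exons), between 455 and 1271 bp from its first base. In Kmt2c, on the minus strand of chromosome 5 from 25271798 to 25498783, 2 lay in exon 36 (1896 bp) and 3 in exon 43 (1707 bp) of 59 exons. Thus in these genes most clusters inside coding sequence were grouped in a few long exons, as in Kmt2d. Whether these clusters mark initiation was not tested. Long exons also hold much of the coding sequence. In Kmt2d they hold 9978 bp of it outside promoter windows, beside a whole coding sequence of 16764 bp.

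Kmt2e, Setd1a and Setd1b differed in this from the other 4. Kmt2e, on the plus strand of chromosome 5 from 23434441 to 23504235, had 1 coding cluster, in exon 13 of 110 bp. Setd1a, on the plus strand of chromosome 7 from 127776670 to 127800122, had 2, both in exon 6 of 230 bp. Setd1b, on the plus strand of chromosome 5 from 123142193 to 123168629, had only its gene-start cluster. Each of the 3 genes has at least 1 exon of 1000 bp or more, and no cluster lay in those exons in any line. Outside promoter windows these exons sum to 5612 bp in Kmt2e, 7773 bp in Setd1b and only 1056 bp in Setd1a. Most coding genes lacked such clusters too, 90.1% of the reference genes of the next paragraph in E14.

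Per length, long exons of these genes carried more exonic clusters than long exons in general. Exons of at least 1000 bp, outside promoter windows, summed to 49158 bp in the 7 genes and held 17 clusters in each line, 0.346 per kb. Of these 17 clusters, 9 lay in Kmt2d, which does not meet the rule of the reference below, and 0 in Kmt2e, Setd1a and Setd1b. The reference was the protein-coding genes with a promoter cluster and such an exon, 8410 in E14, whose density was 0.0621 per kb in E14, 0.0631 in A1 and 0.0631 in C7. It was not matched for expression level, and the part of expression in the difference was not tested. Of these reference genes 90.1% had no such cluster in E14. Genes are not replicates, and these values are a description of 1 set per line. The 7 genes were also chosen with earlier results of these data known. Within coding sequence alone the 7 genes had 16 clusters in 28122 bp, 0.569 per kb, beside 0.176 per kb in E14, so the ratio to other genes was smaller there.

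The genes ranked in the order Kmt2b, Kmt2d, Kmt2c and Kmt2a. Kmt2b had 3 clusters in 2139 bp, 1.40 per kb, and 77 reference genes of E14 were higher. Kmt2d had 9 in 12459 bp, 0.722 per kb, with 220 genes higher in density and 19 with more clusters. Kmt2d is not itself in the reference, since it lacks a promoter cluster. Kmt2c had 3 (0.282 per kb) and Kmt2a 2 (0.211 per kb), and the remaining genes had 0. With so few clusters a gene, neighbours in this order were not told apart.

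**Figure D4:**
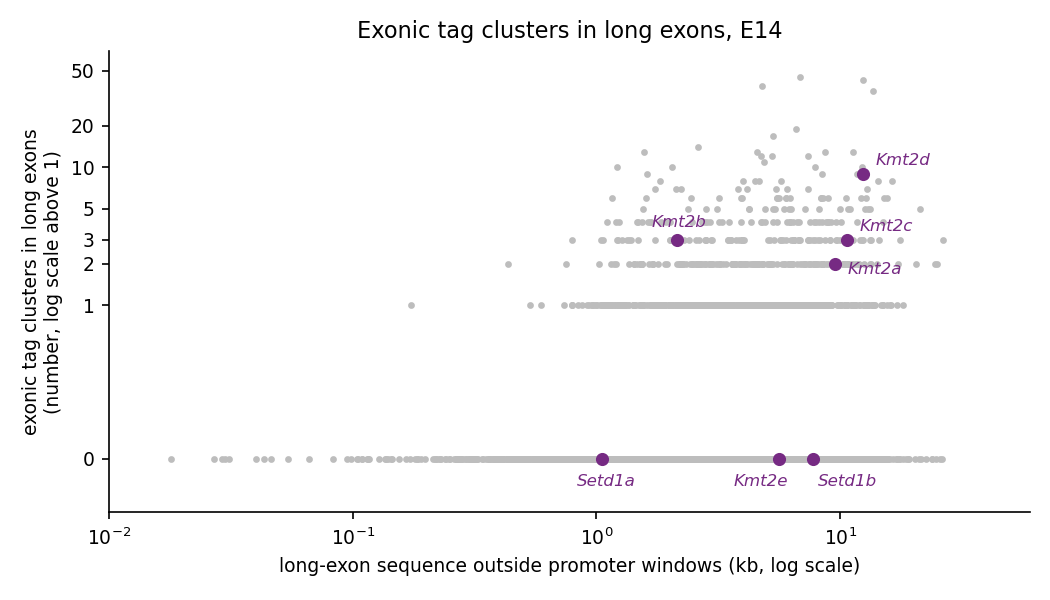
Exonic clusters in exons of at least 1000 bp (y axis, number, log scale above 1) against the length of such exons outside promoter windows (x axis, kb, log scale) in E14, with 1 point a gene, the 7 genes in purple and other coding genes in grey. Kmt2d stands at 9 clusters, Kmt2b and Kmt2c at 3, Kmt2a at 2, and Kmt2e, Setd1a and Setd1b at 0, where 90.1% of the reference genes lie.

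Introns of the 7 genes sum to 388 kb, 80.2% of their length and 91.1% in Kmt2c, and held no cluster in any line. By the limit of 3 counts for a count of 0, the 21 exonic and intronic clusters allow an intronic share of up to 14.3%. Of all exonic and intronic clusters of E14, 58.3% were exonic, in A1 58.5% and in C7 58.9%. Lack of intronic clusters was common among genes rich in exonic ones, since 261 of 442 coding genes with at least 3 exonic clusters (59.0%) had none in E14.

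The clusters in coding sequence lay in each reading frame. Of the 26 dominant TSSs in E14, 7 stood on the first base of a codon, 9 on the second and 10 on the third. The first ATG downstream was in frame for 11 of the 26. The first in-frame ATG lay a median of 236.5 bp downstream (2 to 1099 bp), and the TSS a median of 846.5 bp into its exon (25 to 3305 bp).

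Exonic clusters were mostly narrow and gene-start clusters mostly broad. The median interquantile width of the 21 exonic clusters was 2 bp in each line (1 to 17 bp in E14 and C7, 1 to 23 bp in A1), and 16 of 21 were 3 bp or narrower in each. Of all exonic clusters of E14, 50.7% were that narrow and the median was 3 bp. For the 15 promoter clusters of the 7 genes the medians were 17, 16 and 17 bp in E14, A1 and C7, beside 20, 21 and 21 bp for all promoter clusters. The 9 gene-start clusters among them had medians of 26, 27 and 29 bp, from 3 bp up to 46, 53 and 55 bp.

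The gene starts of Kmt2a, Kmt2b and Kmt2c kept their dominant TSS, with small changes in width. Kmt2a began at 44881289 in all 3 lines, 7 bp inside the annotated start, with a width of 20 bp in E14, 21 bp in A1 and 20 bp in C7. Kmt2b began at 30588728 in all 3, with 8, 10 and 12 bp. Kmt2c began at 25498783, the annotated start itself, with 46, 53 and 46 bp. At these 3 gene starts the dominant TSS did not move, and widths differed by at most 7 bp.

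Kmt2e had the largest difference in width. Its main cluster, with the dominant TSS at 23434463 in all 3 lines, was 29 bp wide in E14, 51 bp in A1 and 36 bp in C7. Setd1b, with its dominant TSS at 123142237, was 45 bp wide in E14 and A1 and 55 bp in C7. The clone with the wider cluster was thus not the same in the 2 genes, and with 1 set per line the spread that replicates would give is unknown.

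Setd1a used 3 gene-start clusters in each line. They had their dominant TSSs near 3 annotated transcript starts, at 127776640 in E14 and C7 (127776642 in A1), at 127777135 and at 127777359, the last pair the same in all lines. The first was 3 bp wide in each line. The second was 26, 27 and 29 bp wide and the third 31, 31 and 32 bp.

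**Figure D5:**
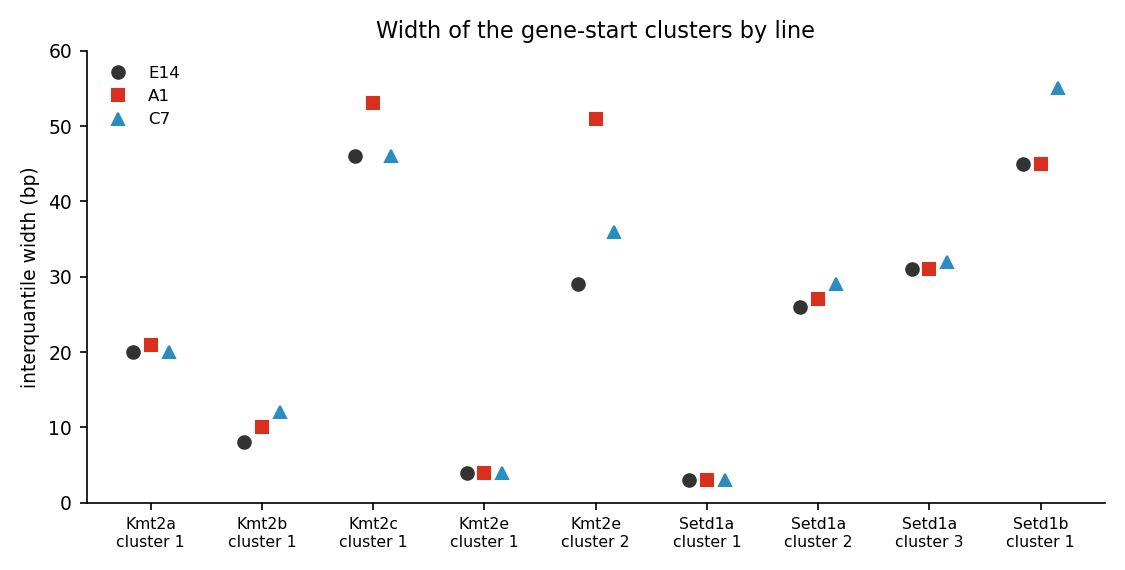
Interquantile width in bp (y axis) of the 9 gene-start clusters (x axis) in E14 (circles), A1 (squares) and C7 (triangles), 1 value per line and no replicates. Kmt2e cluster 2 spreads from 29 to 51 bp, and 5 of the 9 clusters differ by at most 3 bp between lines.

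Dominant TSSs moved within clusters more often than clusters came or went. The dominant TSS was the same base in all 3 lines at 22 of the 36 clusters, at 7 of 9 gene starts, 3 of 6 clusters near internal transcript starts and 12 of 21 exonic clusters. At exonic clusters A1 differed from E14 at 8 of 21 (25.4% of all shared exonic clusters), C7 from E14 at 3 of 21 (22.9%) and C7 from A1 at 7 of 21 (27.7%). Among the 15 exonic members that are 2 bp wide the counts were 5, 2 and 5, beside 23.9%, 20.9% and 26.1% of all shared exonic clusters of that width. At promoter clusters the counts were 3 of 15 (21.7%), 2 of 15 (19.3%) and 5 of 15 (22.8%). A1 thus differed from C7 about as often as from E14, and the shares for all clusters were of the same order.

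The width of a cluster bounded the size of its move. Of the 14 clusters with a move, 8 moved by 1 bp only. However, 7 of the 14 were 2 bp wide, where 1 bp is the only move possible. The largest move was at Kmt2a cluster 5 in exon 27, which spans 19 bp. Its dominant TSS was at 44819646 in E14 and C7 and at 44819628 in A1, 18 bp downstream. At 2 clusters both clones shared 1 base and E14 had another. Kmt2e cluster 3 had it at 23482426 in E14 and at 23482425 in A1 and C7. Setd1a cluster 4 had it at 127784037 in E14 and at 127784038 in A1 and C7. Kmt2e cluster 3 is 2 bp wide, so clones that both differ from E14 there must share a base. How often both clones shared a base other than that of E14 was not counted over all shared clusters. Whether these 2 clusters exceed such a background was therefore not tested.

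By counts of promoter, exonic and intronic clusters in the 3 lines (9 counts, Euclidean distance), the genes nearest to Kmt2d were Cfl1 at 2.45, Dhx9 at 2.45 and Pou2f1 at 2.65. Another gene stood at the distance of the third, and the tie was broken by name. In E14 Cfl1, which encodes the actin-severing protein cofilin, had 1 promoter and 8 exonic clusters. Dhx9, an RNA helicase, had 1 promoter, 9 exonic and 1 intronic cluster, and Pou2f1, the transcription factor OCT1, had 1, 10 and 1. Unlike Kmt2d, each of them had a promoter cluster.

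The proteins that work with these enzymes, and those that remove the mark, gave 20 further genes. All 20 had a promoter cluster in each line, though in Dpy30 and Hcfc2 not at the gene start. Exonic clusters were found in 6 of the 20. Of all coding genes with a cluster in E14, 1602 of 11450 had an exonic one. The shared core of the complexes (Wdr5, Rbbp5, Ash2l and Dpy30), which the SET domain needs for full activity, had 1 exonic cluster in each line. The SET1 partners (Cxxc1, Wdr82, Bod1l, Hcfc1 and Hcfc2) had 28 exonic clusters in E14 and C7 and 29 in A1. Of these, Bod1l, which works with SETD1A at replication forks, had 25, 26 and 25. The partners of KMT2A and KMT2B (Men1 and Psip1) had 5, 5 and 6. The partners of KMT2C and KMT2D (Kdm6a, Paxip1, Pagr1a and Ncoa6) had 0 in each line. The demethylases of the mark (Kdm5a, Kdm5b, Kdm5c, Kdm1a and Kdm1b) had 6 in each.

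In these partner genes 3 intragenic clusters were found in 1 DKO line and not in the other lines. Bod1l had an exonic one at 41821240 in A1, Psip1, which tethers MLL complexes to chromatin, an exonic one at 83463613 in C7, and Kdm6a, an H3K27 demethylase, an intronic one at 18171443 in C7. Each covered a single base, and none was shared by both clones. These were 1 of 41 exonic clusters of the partner genes in A1, 1 of 41 in C7 and 1 of 3 intronic ones in C7. Over all clusters, the shares with no overlap in E14, whatever the other clone held, were 1.74% of exonic clusters in A1 and 1.9% in C7. For intronic clusters they were 1.53% in A1 and 0.563% in C7. With 1 cluster each, a difference from these shares was not tested.

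The number of marker genes with a promoter cluster was the same in all 3 lines. Such a cluster was present at 8 of 8 embryonic stem cell markers, at 0 of 3 mesoderm, 1 of 4 endoderm (Sox17), 1 of 3 neural (Tubb3) and 3 of 3 fibroblast markers (Col1a1, Col1a2 and Thy1). At Esrrb, Sox17 and Col1a2 no such cluster stood at the gene start in any line, only near other annotated transcript starts. The part of other cells in the member clusters was not tested. Pwwp2a had 1 promoter and 1 intronic cluster in each line and Pwwp2b had none in any, including E14. A start cluster does not show whether an intact product is made, so these positions do not check the knockout.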

How the data were processed

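CAGE-seq libraries of nuclear RNA were read as single ends of 80 bp. Per the labels and the study's methods, the authors mapped reads to mm10 (STAR 2.4.2a, SAMtools 1.3 and bedtools 2.17.0 are in the submitters' processing notes), merged the libraries of a line, normalized by a power law and called clusters with CAGEr. The deposited positions give each cluster's bounds, dominant TSS and interquantile blocks. All 98732 deposited scores are 0, so no level was used, and these positions hold no depth.

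Members and lists were chosen with earlier results of these data known. Using Python 3.11.15, NumPy 2.4.6, SciPy 1.17.1 and Matplotlib 3.10.9, clusters were placed by dominant TSS in GENCODE M21, in the order promoter (500 bp), exon, intron, intergenic, on the same strand, and overlap was at least 1 bp. On simulated clusters the placement and overlap steps recovered 4000 of 4000 known answers each. Shares have 95% Wilson intervals. No p-value was calculated. Named genes were the 7 members, partner genes whose intragenic clusters differed between lines and the one with the most exonic clusters, the 3 genes nearest to the member with the most long-exon clusters, and the targeted genes. Alternatives were other promoter windows (100 and 1000 bp), long-exon limits, overlap rules, a cluster midpoint, coding transcripts only, either strand and a minimum width of 3 bp.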

Additional observations from a re-analysis of the deposited data

Results flagged for a closer look

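Clusters on the strand opposite to the 7 genes were not used in the comparisons above, and a signal was present there. In E14 6 such clusters lay between 500 bp upstream of the gene starts and the gene ends, in A1 6 and in C7 6. Kmt2e had 3 upstream of its start, Setd1a had 2 in its first part, and Kmt2b had 1 inside exon 3, from 30586298 to 30586308, between its sense clusters 3 and 4. Its dominant TSS was 30586308 in both E14 and C7 and 30586298 in A1. Kmt2a, Kmt2c, Kmt2d and Setd1b had 0 in each line. The deposited positions carry no level, and lines were not tested against each other.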

How the results depend on the processing

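No paired analysis was possible because the libraries of each line were merged before clusters were called, and leaving out a library could not be run for the same reason. No single value changed sign, but which of promoter and exonic clusters was the larger count turned under 2 settings. With a promoter window of 100 bp, 8 member clusters counted as promoters in each line, with median widths of 27.5, 29 and 30.5 bp in E14, A1 and C7. Exonic clusters then numbered 27, and 1 cluster upstream of Kmt2e was intergenic. With 1000 bp there were 19 promoter and 17 exonic clusters in each line, and the median promoter width was 8, 10 and 10 bp. A minimum interquantile width of 3 bp left 12 promoter clusters in each line, 6, 6 and 5 exonic clusters and a long-exon density of 0.102, 0.102 and 0.0814 per kb, against 0.0306, 0.0323 and 0.0316 in the reference, and it left Kmt2d with 1 exonic cluster. Coding sequence alone, an alternative chosen after seeing the data, gave 0.569 per kb in each line. Requiring the same dominant TSS lowered sharing to 61.1%. Allowing 5 bp, the dominant TSS matched at 91.7% of clusters between E14 and A1, 97.2% between E14 and C7 and 88.9% between A1 and C7. The pyrimidine-purine step in A1 fell to 0% with CA alone and with the minimum width. The other 106 alternative values of these results stayed within 1.5 times of the count or within the interval. Of the exonic counts for single member genes, 25 moved beyond that and 101 did not. The counts are small, the clusters have no level, and a cluster's absence may reflect depth, which was not tested.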
